A study of Homo sapiens with 21 samples.

Results

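The levels of 10 imprinted genes were followed across 7 clones of Panc-1, a human cell line from a pancreatic ductal carcinoma, that had become resistant to a drug. The genes were ZNF597, NAP1L5, MEST, PEG3, PEG10, SNRPN, H19, IGF2, MEG3 and CDKN1C, taken by gene name from a table of 58233 genes. They had been picked because measured levels in these same libraries looked on or off by clone. Their own levels and states are therefore given as a description, with no test, and tests are kept to other genes. ATUX8H and ATUX9D were the ATUX clones, SMAP8D, SMAP9C and SMAP6G the SMAP clones, and Sor6G and Sor9H the Sorafenib clones. The series presents ATUX and SMAP as activators of the phosphatase PP2A, and Sorafenib inhibits kinases such as RAF and the VEGF receptors. Wild-type Panc-1 cells were taken through rising concentrations for months, the surviving cultures were diluted to single colonies, and each clone was held in 8 µM of its drug. Every line is 1 clone, the lines to be sequenced were selected partly by qRT-PCR, and the untreated parent line was not analysed here. All values therefore compare resistant clones with each other. Each clone gave 3 libraries, and no label says that these repeats were separate cultures, so spreads within a clone may be technical.

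Imprinted genes are transcribed mainly from the copy inherited from 1 parent. DNA methylation laid down in the egg or the sperm marks an imprinting control region, and the marked and unmarked chromosome copies then read out different genes of the same domain. ZNF597, H19, MEG3 and CDKN1C are known as maternally expressed in human tissues, and NAP1L5, MEST, PEG3, PEG10, SNRPN and IGF2 as paternally expressed. In tumours and cultured cells, loss of imprinting or silencing of the single active copy is often described, and IGF2, H19, CDKN1C, PEG3 and MEG3 are frequent examples. The counts here do not separate the 2 parental copies, so they give the level of a gene and not the copy it came from. In bulk libraries, fewer cells of a type and less RNA per cell cannot be told apart.

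Sequences just upstream of a RefSeq start of ZNF597, MEST and MEG3 are shown because these genes carried the widest drug-related differences among the 10. They come from RefSeq promoter windows of GRCh38.p14 (1 window for ZNF597, and 1 picked of 5 for MEST and of 3 for MEG3), without the bases that fall in an annotated exon, and CpG dinucleotides, the sites of DNA methylation, are in capitals. The ZNF597 stretch, chr16:3443554-3443610 on the minus strand, is short because it lies between the first exon of ZNF597 and exons of the divergent gene NAA60.
ZNF597: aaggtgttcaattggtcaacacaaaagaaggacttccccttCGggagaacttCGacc
The MEST stretch is chr7:130491808-130492057 on the plus strand and the MEG3 stretch is chr14:100825858-100826097 on the plus strand. Both lie inside the gene by its deposited positions, upstream of an internal RefSeq start and not of the whole gene.
MEST: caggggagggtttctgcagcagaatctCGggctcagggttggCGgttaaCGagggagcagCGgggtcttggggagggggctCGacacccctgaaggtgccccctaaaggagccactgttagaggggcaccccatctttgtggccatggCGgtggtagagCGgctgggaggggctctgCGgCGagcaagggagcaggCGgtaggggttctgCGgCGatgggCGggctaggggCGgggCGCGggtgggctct
MEG3: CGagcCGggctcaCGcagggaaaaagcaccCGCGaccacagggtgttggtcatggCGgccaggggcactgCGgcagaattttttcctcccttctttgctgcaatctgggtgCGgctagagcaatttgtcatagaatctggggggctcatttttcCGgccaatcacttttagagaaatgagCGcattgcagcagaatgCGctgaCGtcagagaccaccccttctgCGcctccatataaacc
These stretches hold 2 CpG in 57 bases for ZNF597, 16 in 250 bases for MEST and 13 in 240 bases for MEG3. Over the full windows of 300 bases, the median of all 35116 windows was 14 CpG, and the windows of these genes held 17 for ZNF597, 22 for MEST and 19 for MEG3. The hexamer TGCCGC, which is recognised by the imprint-protecting zinc finger protein ZFP57, was searched on both strands. Of the 6 genes with a window, 4 held it in at least 1 window, as did 19.5% of all genes with a window. Windows of a gene can overlap, so they were not counted one by one. The 6 genes held 15 windows, and all 27305 genes held 35116. A gene with more windows has more chances of a match, so these shares are not on an equal basis. Of the stretches printed, that of MEG3 holds it, as its reverse complement GCGGCA, and those of MEST and ZNF597 do not. A match is only a match of letters, and methylation was not measured in these libraries.

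Libraries held 21022621 to 27691256 counts (median 23026429). Levels are TMM-scaled CPM, that is counts scaled to library size, given for a clone as the mean ± SD of its 3 libraries. Of the ductal epithelial markers checked against the labelled cell type, 7 were at 1 CPM or more in every library, while CFTR stayed under 1 CPM. Summed immune markers reached at most 3.31 CPM, endothelial markers 1.40 CPM, and acinar and endocrine markers 0.224 CPM. Summed fibroblast markers ran from 10.9 to 184 CPM. COL1A1, a collagen gene among them, averaged 122 ± 63.004 CPM in SMAP and 11.9 ± 1.80 CPM in Sorafenib clones, and its part in the differences between these drugs was not tested.

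A clone was called on for a gene when all 3 libraries had at least 1 CPM, off when the libraries together lay under 0.1 CPM, and intermediate otherwise. By this rule 7 of the 10 genes were on in all 7 clones, so a switch between on and off describes only ZNF597. ZNF597 was on in 5 clones and off in 2. H19 was off in all 7 clones. PEG3 was on in no clone, off in 5 and intermediate in 2. The lowest values inside the on state were MEST libraries of the SMAP clones, which began at 2.20 CPM, a CDKN1C library of ATUX8H at 2.11 CPM and an NAP1L5 library of SMAP8D at 2.29 CPM. The values just outside were those of PEG3 in SMAP9C and SMAP6G, at means of 0.163 and 0.135 CPM. Scaled by gene length, PEG10 had the highest mean level over the 7 clones with 361 TPM, followed by MEG3 with 88.1 TPM and MEST with 31.3 TPM. SNRPN (12.1 TPM), IGF2 (10.9 TPM), CDKN1C (9.31 TPM) and NAP1L5 (8.90 TPM) lay next to each other, and their ranges over clones overlapped. ZNF597 averaged 4.60 TPM with the ATUX clones at 0.

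**Figure D1:**
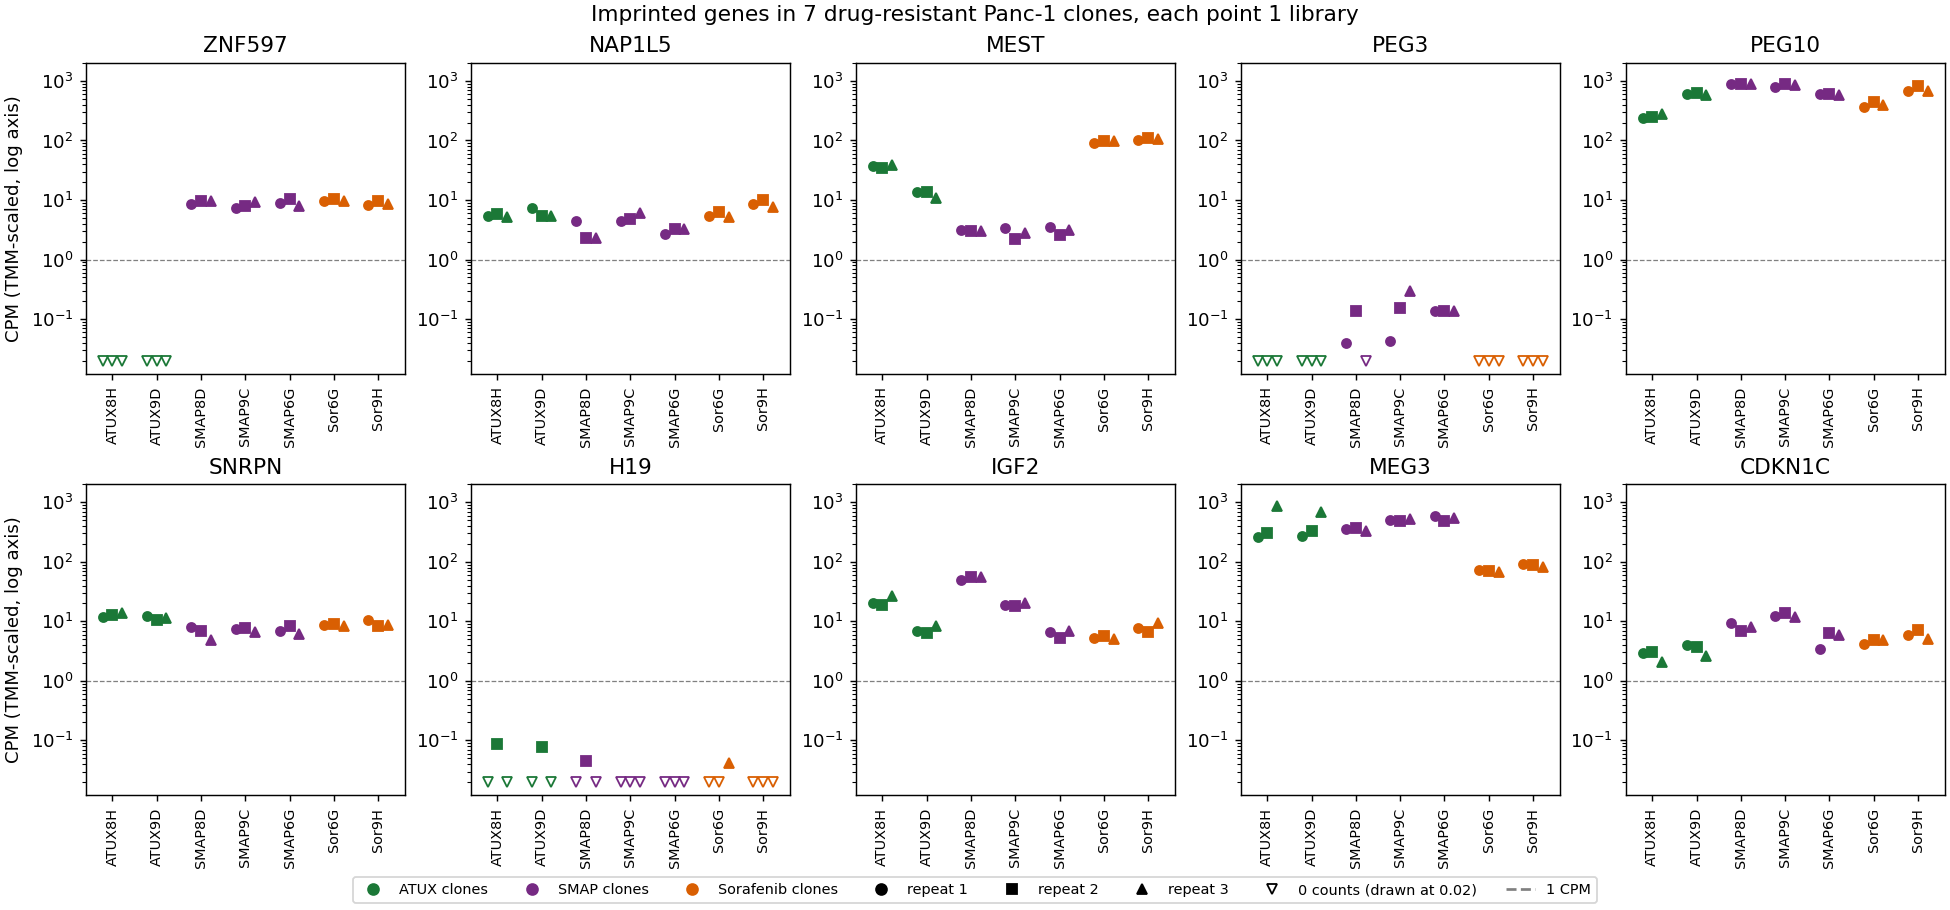
Level of each of the 10 imprinted genes in all 21 libraries, in TMM-scaled CPM on a log axis, with 1 point per library and the clones grouped by drug; libraries with 0 counts are drawn at 0.02 CPM. ZNF597 was at 0 in all 6 ATUX libraries and between 7.47 and 10.48 CPM in the other libraries, while MEST fell into separate ranges by drug.

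ZNF597 (ENSG00000167981, GRCh38 chromosome 16, 3432422 to 3443542, minus strand) encodes a zinc finger protein and is known as a maternally expressed gene beside NAA60. It had 0 counts in all 3 libraries of ATUX8H and all 3 of ATUX9D. In the SMAP clones it was at 8.60, 9.55 and 9.44 CPM in SMAP8D, 7.47, 8.07 and 9.14 CPM in SMAP9C and 8.74, 10.4 and 7.98 CPM in SMAP6G. In the Sorafenib clones it was at 9.55, 10.48 and 9.62 CPM in Sor6G and 8.33, 9.46 and 8.53 CPM in Sor9H. The 15 libraries with the gene spanned less than the gap to the ATUX libraries, and SMAP and Sorafenib libraries overlapped. The SMAP libraries held 1838 counts and the Sorafenib libraries 1336. Against a floor of 3 counts over the ATUX libraries (0.0213 CPM), the level was at least 414-fold higher in the SMAP clones and at least 439-fold higher in the Sorafenib clones. This bound covers counting error only.

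Of 18605 other genes tested, 3 had a Pearson r of at least 0.99 with ZNF597 over the 7 clone means of log2 CPM. LA16c-306E5.2, on chromosome 16 and overlapping ZNF597 on the opposite strand, had r = 0.998, with 0 counts in the ATUX clones and 0.643 to 0.915 CPM in the others. Its 266 counts may in part be ZNF597 reads, since the strand setting of the counting is not given and reads of antisense genes then cannot be told apart. RP11-20I23.8, also on chromosome 16, had r = 0.992 and stayed at 0.173 CPM or less. SUPT4H1 on chromosome 17, a transcription elongation factor subunit, had r = 0.991 at 16.7 and 16.3 CPM in the ATUX clones and 31.1 to 35.6 CPM elsewhere. These are descriptions over 7 points that share their libraries.

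NAA60, an N-terminal acetyltransferase whose first exons adjoin those of ZNF597, was lower in the ATUX clones but was not off. ATUX clones (n = 2) averaged 33.9 ± 5.63 CPM, SMAP clones (n = 3) 50.1 ± 1.38 CPM and Sorafenib clones (n = 2) 42.5 CPM. The log2 difference was -0.54 ± 0.13 for ATUX against SMAP, with an edgeR adjusted p of 0.0485. That call was lost without ATUX8H, SMAP8D, SMAP9C, SMAP6G, Sor6G or Sor9H, with a highest adjusted p of 0.125. For ATUX against Sorafenib the log2 difference was -0.32 ± 0.14 (edgeR adjusted p = 0.145).

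The wider neighbourhood of ZNF597 was also lower in the ATUX clones. Of 37 tested genes within 500 kb, ATUX clones had 0 higher and 10 lower than SMAP clones at an edgeR adjusted p under 0.05. That comparison called 10.3% of its 18613 genes, 5.27% as higher in ATUX and 5.06% as higher in SMAP. Their median log2 difference was -0.56, against 0.02 for all genes tested. They include LA16c-306E5.2, which passed the filter on low counts only through the SMAP and Sorafenib clones. In ATUX against Sorafenib clones, where 25.8% of all genes were called (13.3% higher in ATUX, 12.5% higher in Sorafenib), 2 neighbours were higher and 15 lower with a median of -0.46. In SMAP against Sorafenib clones, where 34.5% of all genes were called (16.8% higher in SMAP, 17.7% higher in Sorafenib), 4 were higher and 6 lower with a median of 0.04. ZNF213, a zinc finger gene, had the widest difference of the called neighbours that reached 5 CPM, with 6.85 ± 1.97 CPM under ATUX and 17.9 ± 0.582 CPM under SMAP (log2 = -1.36 ± 0.21, edgeR adjusted p = 0.0157). The shift covered the end of the chromosome. Of 123 genes with at least 5 CPM in the first 5 Mb of chromosome 16, a window chosen after the values were seen, 114 were lower in ATUX than in SMAP clones, with a median log2 of -0.47. The rest of the chromosome had a median of 0.09. Each ATUX clone showed it, with medians of -0.48 in ATUX8H and -0.51 in ATUX9D relative to the mean of the SMAP clones. Sor6G lay at 0.10 and Sor9H at -0.01. The SMAP clones lay between -0.03 and 0.03, but each is part of that mean and so is drawn towards it. The 3 drug comparisons share their clones, and the part of the regional shift in the ZNF597 level was not tested.

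**Figure D2:**
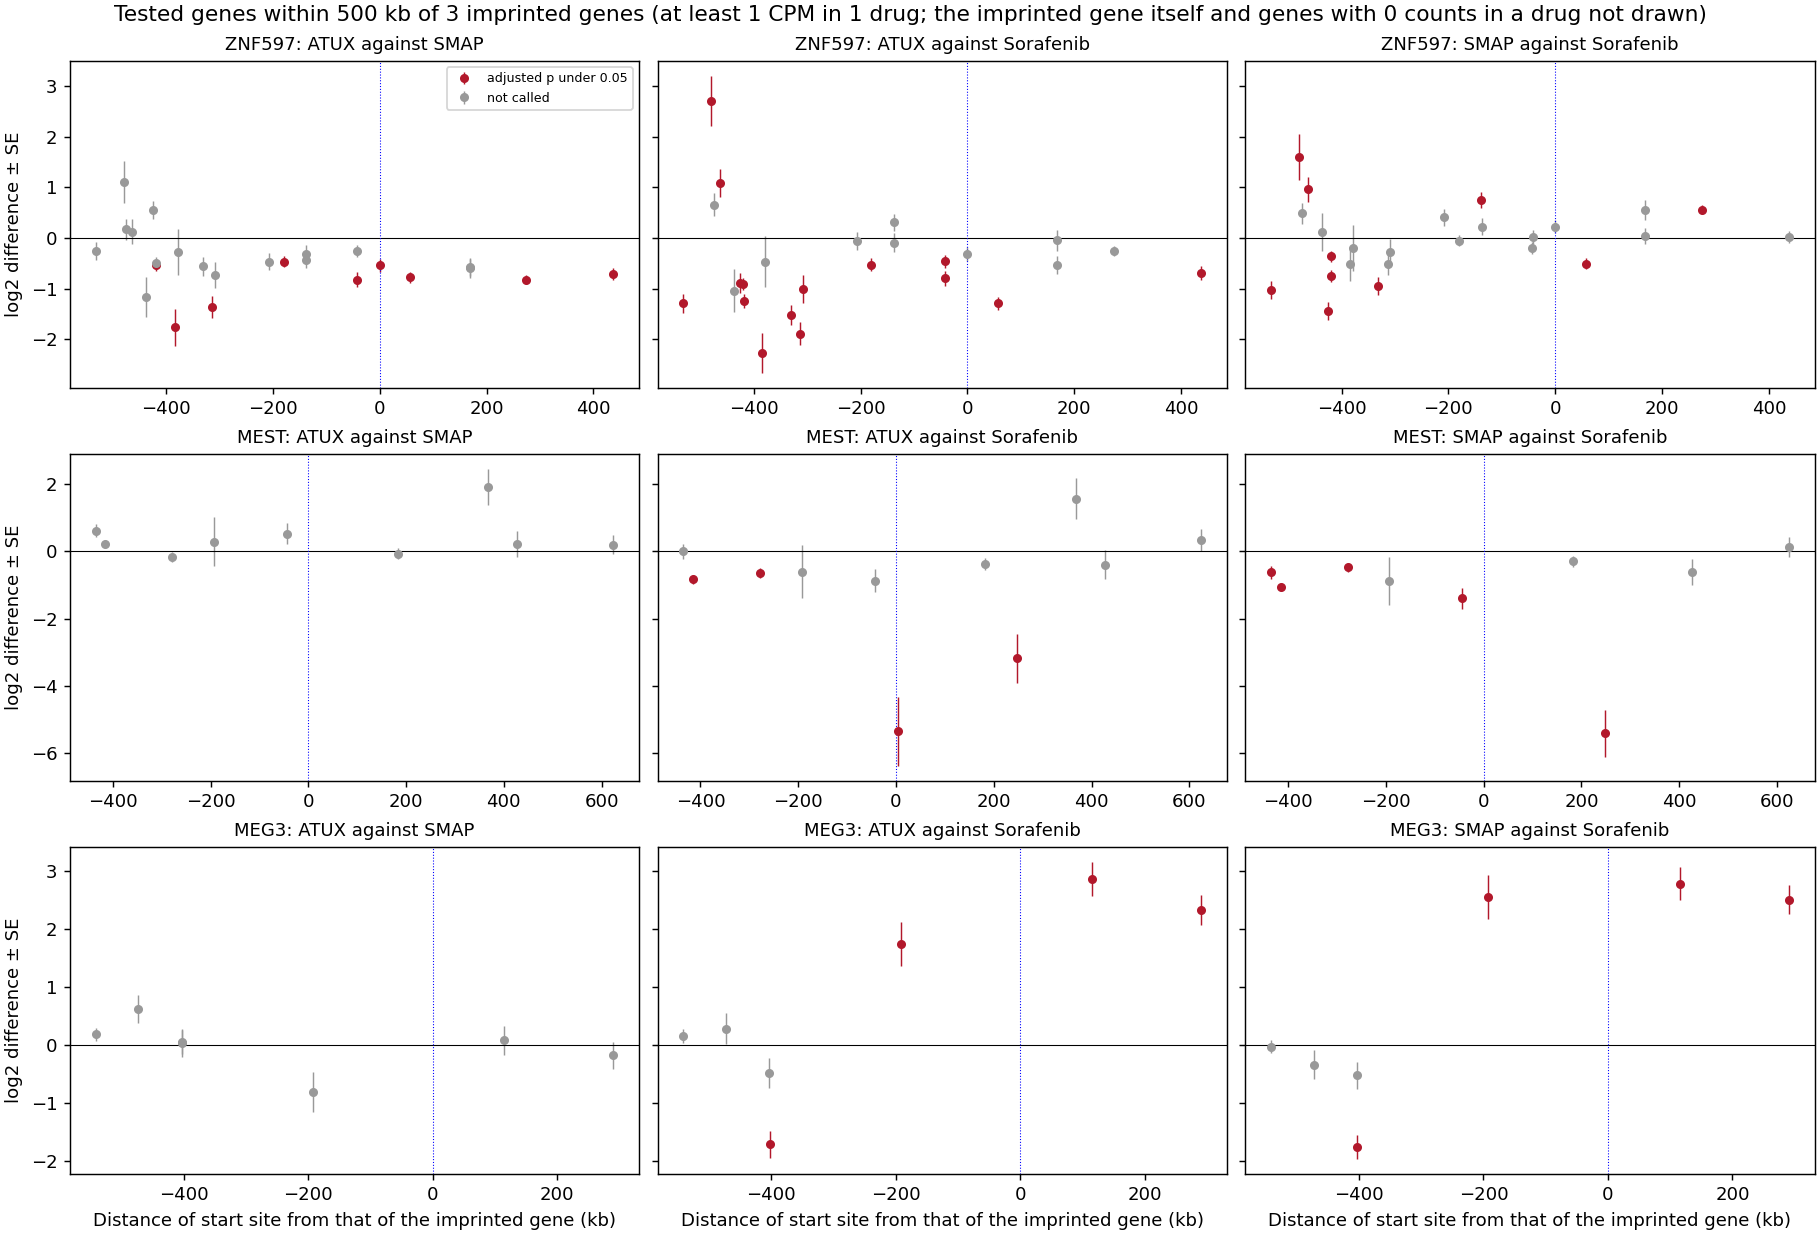
Log2 difference between drugs ± SE of tested genes within 500 kb of ZNF597, MEST and MEG3 that reached 1 CPM in a drug and had no drug at 0 counts, plotted against the distance of their start sites from that of the imprinted gene in kb, with called genes in red and others in grey. Neighbours of ZNF597 lay mostly below 0 in both ATUX comparisons, KLF14 was the lowest neighbour of MEST in SMAP against Sorafenib (-5.40), and SNHG23 the highest neighbour of MEG3 in ATUX against Sorafenib (2.87).

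MEST (ENSG00000106484, GRCh38 chromosome 7, 130486171 to 130506296, plus strand) encodes a hydrolase-like protein and is known as a paternally expressed gene. It was at 92.4, 98.3 and 99.0 CPM in Sor6G and 102, 109 and 104 CPM in Sor9H. It was at 37.6, 34.6 and 38.9 CPM in ATUX8H and 13.7, 13.5 and 10.7 CPM in ATUX9D. In the SMAP clones it stood at 3.16, 2.96 and 2.96 CPM in SMAP8D, 3.39, 2.20 and 2.77 CPM in SMAP9C and 3.57, 2.56 and 3.16 CPM in SMAP6G. The 3 drugs did not overlap, the SMAP libraries were low but never at 0, and the ATUX clones did not overlap each other. The level of the highest clone was 37.7 times that of the lowest. A range at least as wide over the 7 clones was found in 4.77% of 11919 genes that reached 5 CPM in a clone.

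MESTIT1, an antisense RNA inside MEST, had 0 counts in the 9 SMAP libraries and 217 counts in the Sorafenib libraries (1.54 ± 0.178 CPM, n = 2 clones). This was at least 106-fold higher in the Sorafenib clones against a floor of 3 counts over the SMAP libraries. MESTIT1 passed the filter on low counts only through the Sorafenib clones, so its p is not given. In the ATUX clones it held 5 counts, all in ATUX8H. MESTIT1 and MEST lie on opposite strands and may share reads. COPG2, a coat protein gene that also overlaps MEST from the other strand, was at 42.3 to 66.6 CPM in all clones and was not called in any drug comparison. CPA4, a carboxypeptidase gene of the domain, was at 2.75 to 13.8 CPM and was not called either. KLF14, a maternally expressed transcription factor gene of the same domain, averaged 7.70 ± 2.32 CPM over Sorafenib, 0.843 ± 0.778 over ATUX and 0.182 ± 0.0524 over SMAP clones. Its log2 difference was -5.40 ± 0.69 for SMAP against Sorafenib (edgeR adjusted p = 0.00293, called under all 15 alternatives). For ATUX against Sorafenib it was -3.18 ± 0.73 (edgeR adjusted p = 0.0234), a call lost without Sor6G or Sor9H (highest adjusted p = 0.0976). The 13 tested genes within 500 kb of MEST include MESTIT1, which through that filter could only come out higher in Sorafenib. Of the 13, 0 were called in ATUX against SMAP clones (median log2 0.28), where 10.3% of all genes were called. MEST itself differed there by a log2 of 3.08 ± 0.40. ATUX clones had 0 higher and 5 lower than Sorafenib clones (median -0.64), where 25.8% of all genes were called. SMAP clones had 0 higher and 8 lower than Sorafenib clones, with a median log2 of -0.88. There, 34.5% of all genes were called and 17.7% were higher in Sorafenib. Chromosome 7 as a whole had a median of -0.45 in this comparison and -0.39 in ATUX against Sorafenib clones, over 526 genes. The part of that shift in the MEST level was not tested.

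MEG3 (ENSG00000214548, GRCh38 chromosome 14, 100779410 to 100861031, plus strand) is a maternally expressed long noncoding RNA with tumour suppressor activity described in several cancers. It was lowest in the Sorafenib clones, at 74.2, 69.1 and 67.5 CPM in Sor6G and 91.5, 89.6 and 81.3 CPM in Sor9H. In the SMAP clones it was at 351, 368 and 333 CPM in SMAP8D, 504, 490.1 and 529 CPM in SMAP9C and 597, 484 and 553 CPM in SMAP6G. In the ATUX clones it was at 265, 308 and 867 CPM in ATUX8H and 271, 324 and 686 CPM in ATUX9D. All 6 Sorafenib libraries lay below the other 15, and ATUX and SMAP libraries overlapped. The third library of each ATUX clone stood apart, at 3.03 and 2.302 times the mean of the first 2 libraries. A ratio as high was found in 0.638% of genes in ATUX8H and 0.864% in ATUX9D. For IGF2 the same ratios were 1.34 and 1.26, and for CDKN1C they were 0.708 and 0.663. The log2 difference of MEG3 between ATUX and SMAP clones was -0.04 ± 0.20 with all libraries and -0.67 without repeat 3. It turned to 0.25 without repeat 1 and 0.13 without repeat 2.

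Other noncoding RNAs of the DLK1 and MEG3 domain were also lower in the Sorafenib clones. MEG9, a noncoding RNA further along the domain, averaged 6.37 ± 1.36 CPM under ATUX, 7.19 ± 0.821 CPM under SMAP and 1.27 ± 0.00989 CPM under Sorafenib. Single ATUX libraries of MEG9 ran from 2.45 to 12.4 CPM. Its log2 difference from Sorafenib was 2.33 ± 0.26 for ATUX (edgeR adjusted p = 0.00379) and 2.51 ± 0.25 for SMAP (edgeR adjusted p = 0.00151), called under all 15 alternatives in both. SNHG23, a small nucleolar RNA host gene, was at 14.1 CPM in ATUX and 1.92 CPM in Sorafenib clones (log2 = 2.87 ± 0.29, edgeR adjusted p = 0.00307). MEG8, which overlaps MEG3 on the same strand, was at 0.626, 0.625 and 0.0902 CPM in the ATUX, SMAP and Sorafenib clones, and was called in both comparisons with Sorafenib (edgeR adjusted p = 0.0185 and 0.0113), which was lost without Sor9H (0.107 and 0.0799). DLK1, the paternally expressed Notch ligand of the domain, was nearly silent, with 18 counts under ATUX, 36 under SMAP and 0 under Sorafenib. DIO3, a paternally expressed deiodinase gene at the far end, was not. It was at 3.15, 7.52 and 3.21 CPM in the ATUX, SMAP and Sorafenib clones and was called in no drug comparison. Against the Sorafenib clones, 8 of the 14 tested genes within 500 kb of MEG3 were higher and 1 lower under ATUX (median log2 2.04), where 25.8% of all genes were called. Under SMAP 10 were higher and 1 lower (median log2 2.67), where 34.5% of all genes were called. WARS, a tryptophan tRNA ligase, was the lower one in both, at 88.4 CPM in ATUX, 86.4 CPM in SMAP and 289 CPM in Sorafenib clones. Several called genes there are noncoding RNAs that overlap each other, and their reads may not be separable. Of 6 tested genes starting within 500 kb that averaged at least 5 CPM, 3 were below 0 in SMAP against Sorafenib (median log2 1.08). In ATUX against Sorafenib, 2 of the 6 were (median log2 1.02). Within 2 Mb, the medians over 25 such genes were 0.01 and 0.28.

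IGF2 (ENSG00000167244, GRCh38 chromosome 11, 2129112 to 2141238, minus strand) encodes a fetal growth factor and differed widely between clones of the same drug. It was at 49.6, 55.2 and 54.95 CPM in SMAP8D, 18.8, 18.2 and 20.3 CPM in SMAP9C and 6.51, 5.21 and 6.77 CPM in SMAP6G. In ATUX8H it was at 20.1, 18.9 and 26.2 CPM and in ATUX9D at 6.89, 6.44 and 8.39 CPM. In Sor6G it was at 5.16, 5.67 and 5.16 CPM and in Sor9H at 7.65, 6.55 and 9.27 CPM. The 3 SMAP clones did not overlap each other, and the libraries of the 3 drugs overlapped. The log2 difference was 3.11 ± 0.13 between SMAP8D and SMAP6G and 1.59 ± 0.13 between ATUX8H and ATUX9D. A range at least as wide over the clones was found in 9.35% of genes.

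H19 (ENSG00000130600, GRCh38 chromosome 11, 1995163 to 2001470, minus strand), the maternally expressed noncoding RNA of the IGF2 domain, had 6 counts over all 21 libraries and 0 in 17 of them. No library exceeded 0.0859 CPM. Within 500 kb of IGF2, 9 of 13 tested genes were higher and 0 lower in ATUX8H than in ATUX9D, with a median log2 of 1.88. That clone comparison called 46.1% of the 16504 genes tested. In SMAP8D against SMAP9C, which called 35.1% of all genes, 8 were higher and 0 lower with a median of 0.96. In SMAP8D against SMAP6G, which called 34.8%, 3 were higher and 0 lower with a median of 0.17. In SMAP9C against SMAP6G, which called 39.7%, 1 was higher and 4 were lower with a median of -0.41, while IGF2 itself differed by a log2 of 1.63 ± 0.13. In Sor6G against Sor9H, which called 33.7%, 0 were higher and 3 lower with a median of -0.11.

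Among 9 genes for IGF2 receptors and regulators, ATUX clones had 1 higher and 2 lower than SMAP clones and 1 higher and 4 lower than Sorafenib clones. SMAP clones had 1 higher and 2 lower than Sorafenib clones. These are 33.3, 55.6 and 33.3% of the list, against 10.3, 25.8 and 34.5% of all genes, and the list medians were 0.10, -0.43 and -0.14. PLAG1, a zinc finger activator of IGF2 promoters, averaged 6.05 ± 1.152 CPM under SMAP, 15.8 ± 3.72 CPM under ATUX and 28.5 ± 0.379 CPM under Sorafenib. It was lower in SMAP than in Sorafenib clones by a log2 difference of -2.24 ± 0.21 (edgeR adjusted p = 0.0013, called under all 15 alternatives), and higher in ATUX than in SMAP clones (log2 = 1.40 ± 0.21, edgeR adjusted p = 0.0141). The last call was lost without SMAP8D (adjusted p = 0.0503). IGF1R, the receptor of IGF1 and IGF2, averaged 41.1 ± 22.2 CPM under ATUX, 50.3 ± 4.05 CPM under SMAP and 102 ± 0.802 CPM under Sorafenib, and was called lower in both comparisons with Sorafenib (edgeR adjusted p = 0.0335 and 0.0369). Both calls were lost without any 1 SMAP or Sorafenib clone, with highest adjusted p of 0.121 and 0.140. INSR, the insulin receptor, averaged 4.03 ± 1.22 CPM under ATUX and 20.4 ± 12.0 CPM under SMAP, and IRS2, an adaptor of both receptors, at 8.46 ± 0.0526 and 22.4 ± 6.22 CPM. Both differences were called (edgeR adjusted p = 0.0395 and 0.0357), but the calls held under only 8 and 9 of 15 alternatives, with highest adjusted p of 0.149 and 0.111 without ATUX9D. They were also called lower under ATUX than under Sorafenib (edgeR adjusted p = 0.0407 and 0.0384). IGF2BP1, an RNA-binding protein of IGF2 mRNA, was higher in ATUX than in Sorafenib clones (85.7 ± 36.0 against 36.4 ± 1.64 CPM, edgeR adjusted p = 0.037), and IGF2BP3 was higher in SMAP than in Sorafenib clones (207 ± 14.6 against 145 ± 5.27 CPM, edgeR adjusted p = 0.0338). Without Sor6G their adjusted p were 0.155 and 0.139.

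CDKN1C (ENSG00000129757, GRCh38 chromosome 11, 2883213 to 2885881, minus strand) encodes the cell cycle inhibitor p57 and is maternally expressed. It was at 2.90, 3.05 and 2.11 CPM in ATUX8H and 4.07, 3.78 and 2.60 CPM in ATUX9D. It was at 9.55, 6.86 and 8.19 CPM in SMAP8D, 12.3, 13.9 and 12.1 CPM in SMAP9C and 3.39, 6.30 and 5.79 CPM in SMAP6G. In Sor6G it was at 4.21, 4.77 and 4.79 CPM and in Sor9H at 5.94, 7.21 and 5.10 CPM. SMAP9C was the highest clone, the ATUX clones were lowest, and ATUX and SMAP libraries overlapped only through 1 library of SMAP6G. The third library was the lowest in both ATUX clones. The log2 ratio of the ATUX to the SMAP mean was -1.50 with all libraries and -1.34 without repeat 3. The clone means spanned 4.74-fold, a range that 15.6% of genes matched or exceeded.

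The domain of CDKN1C also holds KCNQ1OT1, a paternally expressed noncoding RNA that represses its neighbours in cis, and PHLDA2, a maternally expressed placental growth regulator. KCNQ1OT1 averaged 10.7 ± 3.07 CPM under ATUX, 8.43 ± 3.05 CPM under SMAP and 3.36 ± 0.887 CPM under Sorafenib. PHLDA2 averaged 148 ± 67.0, 206 ± 48.4 and 62.6 ± 13.4 CPM. Both were called higher in ATUX and in SMAP than in Sorafenib clones. Without Sor9H the 4 calls were lost, with adjusted p of 0.161 and 0.210 for KCNQ1OT1 and 0.226 and 0.0931 for PHLDA2. KCNQ1, a potassium channel gene whose transcript KCNQ1OT1 crosses in antisense, averaged 0.272 ± 0.0409 CPM under ATUX and 1.45 ± 0.392 CPM under SMAP (log2 = -2.35 ± 0.38, edgeR adjusted p = 0.0172). That call was lost without ATUX8H, ATUX9D, SMAP8D or SMAP9C (highest adjusted p = 0.0608). KCNQ1 was also called higher in SMAP than in Sorafenib clones (edgeR adjusted p = 0.0275), which was lost without SMAP8D, SMAP9C, Sor6G or Sor9H (highest adjusted p = 0.144). The solute carrier gene SLC22A18, its antisense gene SLC22A18AS and the oxysterol-binding OSBPL5 were called in no drug comparison.

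PEG10 (ENSG00000242265, GRCh38 chromosome 7, 94656325 to 94669695, plus strand), a retrotransposon-derived gene known to be paternally expressed, was high in all clones. It was at 238, 246 and 274 CPM in ATUX8H and 611, 618 and 586 CPM in ATUX9D. It was at 905, 897 and 894 CPM in SMAP8D, 786, 878 and 853 CPM in SMAP9C and 609, 599 and 573 CPM in SMAP6G. In Sor6G it was at 362, 445 and 391 CPM and in Sor9H at 670.3, 811 and 673 CPM. The drugs overlapped, and the widest contrast within a drug was between the ATUX clones, with a log2 difference of -1.26 ± 0.07. SGCE, the sarcoglycan gene that shares a promoter region with PEG10 and is also paternally expressed, was at 24.9 CPM in ATUX8H, 39.2 CPM in ATUX9D and 62.4 CPM in SMAP8D, the lowest and highest clones being those of PEG10. It was called in no drug comparison.

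PPP1R9A, a neurabin gene of the same domain, averaged 118 ± 10.7 CPM under Sorafenib, 24.9 ± 3.37 CPM under ATUX and 19.1 ± 7.88 CPM under SMAP. It was called lower in SMAP than in Sorafenib clones (log2 = -2.64 ± 0.36, edgeR adjusted p = 0.0036), under all 15 alternatives. It was also called lower in ATUX than in Sorafenib clones (log2 = -2.23 ± 0.41, edgeR adjusted p = 0.0131), which was lost without ATUX9D or Sor9H (highest adjusted p = 0.0654). Chromosome 7 as a whole had medians of -0.45 and -0.39 in these comparisons, and the part of that shift was not tested. TFPI2, a serine protease inhibitor gene listed with the same domain, was at 10.3 CPM in ATUX8H and 56.6 CPM in ATUX9D. It was at 1.76 CPM in SMAP8D, 0.0162 CPM in SMAP9C, 1.75 CPM in SMAP6G, 19.001 CPM in Sor6G and 23.8 CPM in Sor9H. It was thus off in SMAP9C by the rule used above for the 10 genes. TFPI2 was called lower in SMAP than in Sorafenib clones (edgeR adjusted p = 0.0425), a call lost without a filter on low counts (adjusted p = 0.180) and without SMAP6G, SMAP8D, Sor6G or Sor9H. The log2 difference between SMAP8D and SMAP9C was 6.49 ± 0.68 (edgeR adjusted p = 1.79e-07).

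**Figure D3:**
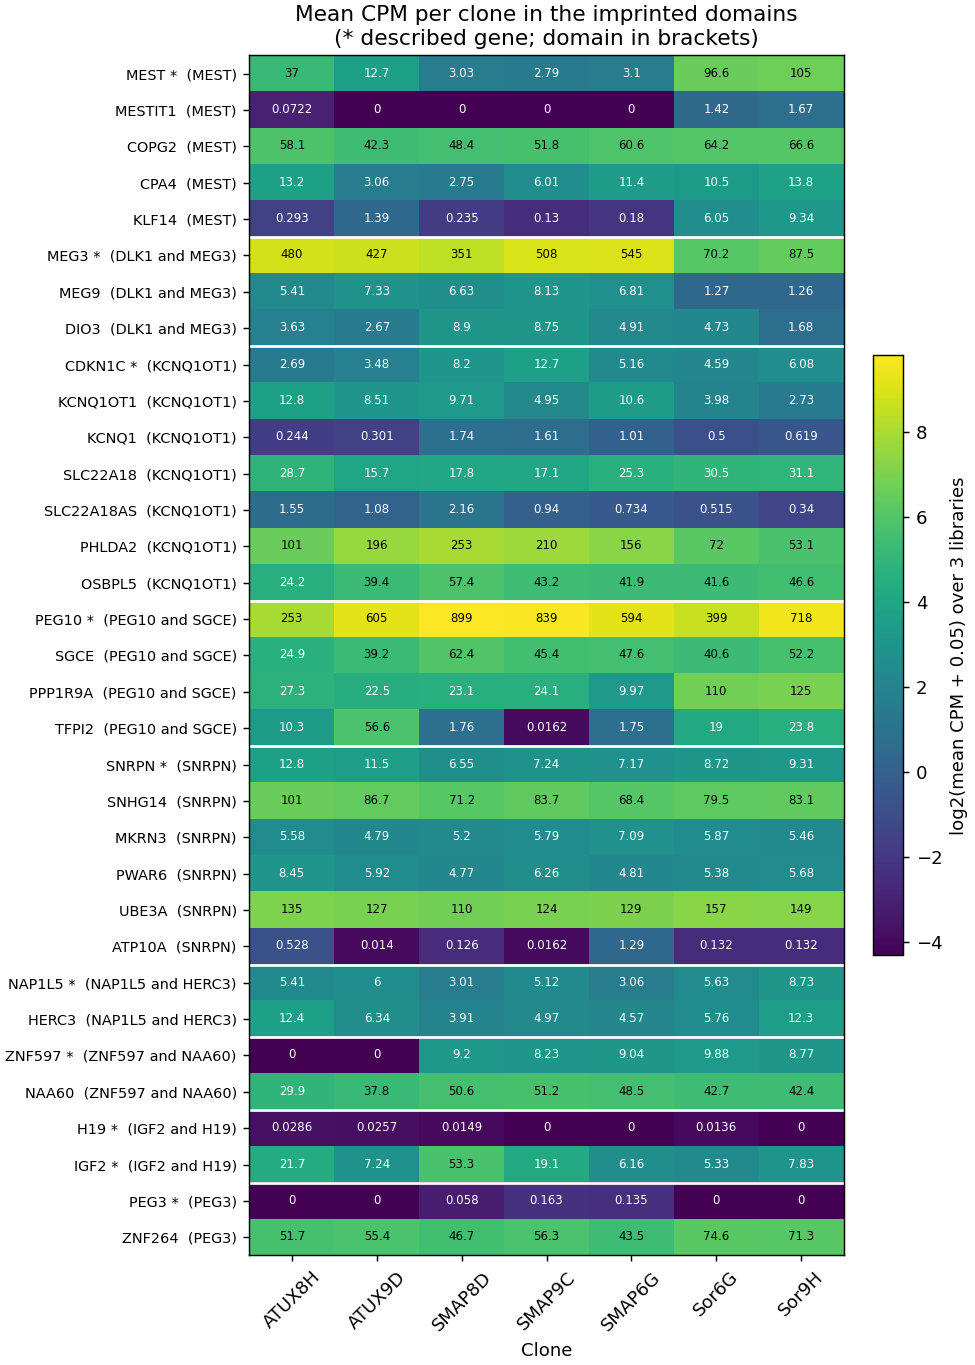
Mean CPM over 3 libraries in each clone (columns) of the 10 imprinted genes, marked by an asterisk, and of other genes of their domains that reached 1 CPM in a clone (rows), printed in each cell and coloured by log2 of CPM plus 0.05. ZNF597 was at 0 in both ATUX clones, and MEG3 and MEG9 were lowest in the Sorafenib clones. MEST and KLF14 were lowest in the SMAP clones, and MESTIT1 was at 0 in the SMAP clones and ATUX9D.

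SNRPN (ENSG00000128739, GRCh38 chromosome 15, 24823637 to 24978723, plus strand), a small nuclear ribonucleoprotein gene of the Prader-Willi region, was the least variable of the genes that were on. It ran from 10.7 to 13.7 CPM in the ATUX libraries, 4.94 to 8.26 CPM in the SMAP libraries and 8.31 to 10.6 CPM in the Sorafenib libraries. The drugs did not overlap, although the gaps to the Sorafenib libraries were small. The clone means spanned 1.95-fold, and 49.6% of genes had at least that range. SNHG14, which overlaps SNRPN on the same strand and carried 40398 counts against 4458 for SNRPN, was at 68.4 to 101 CPM and was called in no drug comparison. UBE3A, the ubiquitin ligase gene opposite it, was called lower in SMAP than in Sorafenib clones (121 ± 10.0 against 153 ± 5.78 CPM, edgeR adjusted p = 0.0416), a call kept under 5 of 15 alternatives with a highest adjusted p of 0.191 without Sor6G. MKRN3 and PWAR6 were on in every clone and called in none of the drug comparisons, and ATP10A, which was highest in SMAP6G at 1.29 CPM, was not called either.

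NAP1L5 (ENSG00000177432, GRCh38 chromosome 4, 88695915 to 88698235, minus strand), an intronless retrogene related to nucleosome assembly proteins, lies within HERC3 on the opposite strand. It ran from 5.24 to 7.22 CPM in the ATUX libraries, 2.29 to 6.03 CPM in the SMAP libraries and 5.28 to 9.99 CPM in the Sorafenib libraries. All drugs overlapped, and the clone means spanned 2.90-fold. HERC3 had 3511 counts against 2597 for NAP1L5 and was called in no drug comparison. ABCG2, a drug efflux transporter gene within 500 kb, averaged 189 ± 107 CPM under ATUX, 20.02 ± 8.01 CPM under SMAP and 3.15 ± 1.70 CPM under Sorafenib (ATUX against Sorafenib log2 = 5.92 ± 0.70, edgeR adjusted p = 0.00429). HERC5, an interferon-induced ligase gene, averaged 3.36 ± 2.24 CPM under ATUX and 25.6 ± 9.75 CPM under SMAP (edgeR adjusted p = 0.0365). FAM13A was at 2.47 ± 0.735 CPM in the SMAP and 32.4 ± 0.709 CPM in the Sorafenib clones (edgeR adjusted p = 0.00322).

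PEG3 (ENSG00000198300, GRCh38 chromosome 19, 56810083 to 56840728, minus strand), a paternally expressed zinc finger gene, was nearly silent. Its 24 counts all came from SMAP libraries, and 13 of the 21 libraries had 0. The highest library was a SMAP9C library at 0.292 CPM, the other SMAP9C libraries were at 0.0430 and 0.155 CPM, and those of SMAP6G were at 0.134, 0.137 and 0.134 CPM. ZIM2, which overlaps PEG3, had 0 counts. ZNF264, a zinc finger gene of the same region, was expressed throughout at 43.5 to 74.6 CPM and was called lower in SMAP than in Sorafenib clones (log2 = -0.60 ± 0.13, edgeR adjusted p = 0.015). That call was lost without SMAP8D, Sor6G or Sor9H (highest adjusted p = 0.0845).

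Over all 130 tested genes within 500 kb of the 10 genes, 12.3% were called in ATUX against SMAP, 37.7% in ATUX against Sorafenib and 38.5% in SMAP against Sorafenib, beside 10.3, 25.8 and 34.5% of all genes. Within 1000 kb the shares were 9.92, 30.2 and 30.2% of 242 genes. Both sets include MESTIT1 and LA16c-306E5.2, which passed the filter on low counts only through drugs where they were higher. DUSP8, a dual-specificity phosphatase gene near H19, was the widest of those not yet named, at 1.51 ± 0.311 CPM in the SMAP and 10.7 ± 2.79 CPM in the Sorafenib clones (log2 = -2.84 ± 0.44, edgeR adjusted p = 0.00476).

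A list of 77 other imprinted genes and domain partners, of which 75 were in the table and 49 passed the filter on low counts in the drug comparisons, was read against the same background. In ATUX against SMAP clones, 1 listed gene was higher and 3 were lower, or 8.16%, with a median log2 of 0.00 and 16 genes at an unadjusted p under 0.05. In ATUX against Sorafenib clones, 6 listed genes were higher and 9 were lower, or 30.6%, with a median of -0.24. In SMAP against Sorafenib clones, 9 listed genes were higher and 12 were lower, or 42.9%, with a median of -0.18. The medians of all genes tested were 0.02, 0.01 and 0.01. Of all genes, 10.3, 25.8 and 34.5% were called in these comparisons. The 49 genes include MESTIT1, which passed the filter only through the Sorafenib clones. Outside the domains above, PAX8-AS1 averaged 1.27 ± 0.177 CPM under ATUX, 7.46 ± 1.64 CPM under SMAP and 4.31 ± 1.37 CPM under Sorafenib (ATUX against SMAP log2 = -2.53 ± 0.34, edgeR adjusted p = 0.0114, called under all 15 alternatives). ZNF331, a zinc finger gene, was at 38.2 ± 1.03, 38.0 ± 0.864 and 79.8 ± 17.1 CPM, and was called lower than Sorafenib in both comparisons under all 15 alternatives (edgeR adjusted p = 0.00668 and 0.00283). GRB10, an adaptor of the insulin receptor, was at 33.6 ± 7.70, 62.1 ± 21.4 and 116 ± 9.09 CPM, and ZDBF2 at 13.9 ± 3.01, 19.7 ± 4.25 and 34.4 ± 1.42 CPM, and both were called lower in ATUX and in SMAP than in Sorafenib clones. GRB10 lost these calls without Sor6G (highest adjusted p = 0.177) and ZDBF2 without Sor9H (0.0642 and 0.124). GNAS, the stimulatory G protein alpha gene, was lower in the SMAP clones (519 ± 20.02 CPM) than in the ATUX (773 ± 102 CPM) and the Sorafenib clones (836 ± 63.4 CPM, SMAP against Sorafenib edgeR adjusted p = 0.0083). Without Sor9H this call was lost (adjusted p = 0.0588). The call of GNAS in ATUX against SMAP (edgeR adjusted p = 0.0345) was lost without ATUX9D (adjusted p = 0.128) and 5 other clones, each left out in turn. HM13, a signal peptide peptidase gene, was at 248 ± 19.7, 288 ± 6.31 and 185 ± 9.26 CPM in the same order of drugs and was called higher than Sorafenib in both comparisons (edgeR adjusted p = 0.0357 and 0.00648). The call held under 8 of 15 alternatives for ATUX (highest adjusted p = 0.160, without Sor6G) and under all 15 for SMAP. BLCAP was lower in SMAP than in Sorafenib clones (39.8 ± 7.66 against 66.001 ± 14.97 CPM, edgeR adjusted p = 0.0414), which was lost without Sor9H (adjusted p = 0.237).

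**Figure D4:**
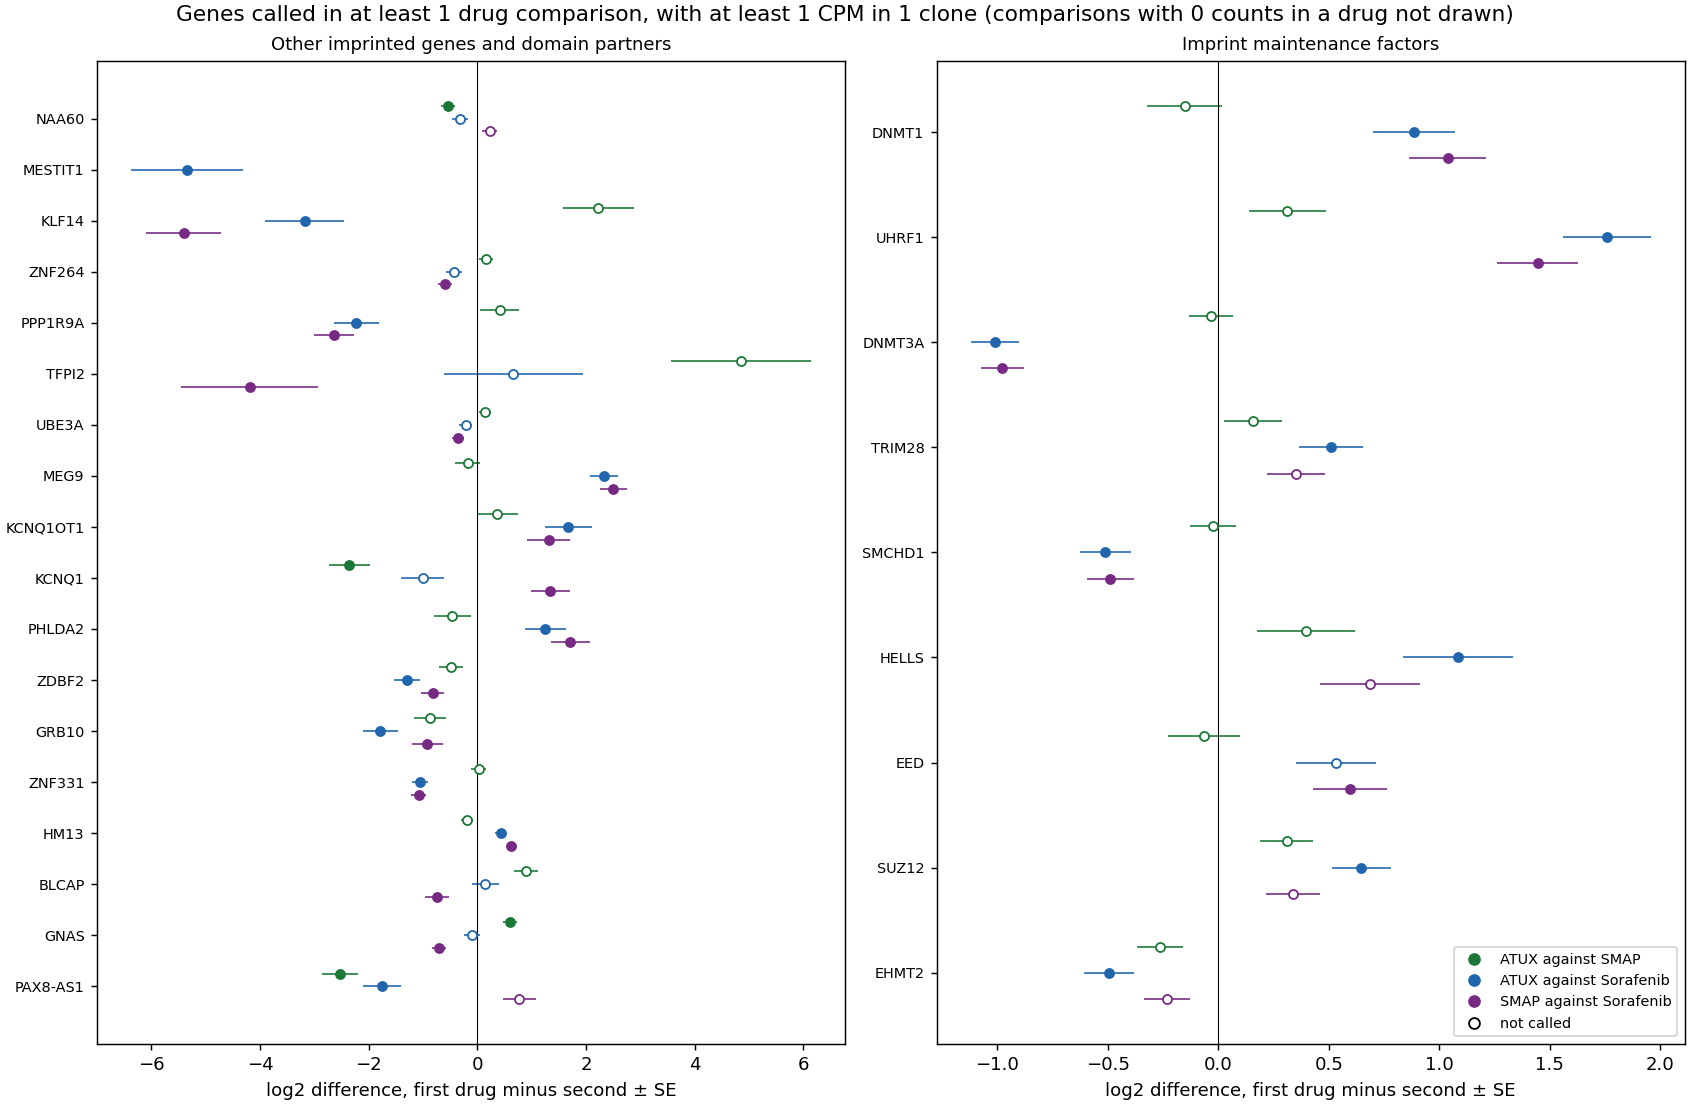
Log2 difference between drugs ± SE, first drug minus second, of the other imprinted genes and domain partners (left) and imprint maintenance factors (right) that were called in at least 1 drug comparison and reached 1 CPM in a clone, with filled points for calls and open points for none. Calls lay on both sides of 0 in the imprinted list, while UHRF1 and DNMT1 lay above 0 and DNMT3A below 0 in both comparisons with Sorafenib.

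Imprints are kept through cell division by DNA methyltransferases and the factors that guide them. Of 18 tested imprint maintenance factors, 0 were called in ATUX against SMAP clones by edgeR, with 3 at an unadjusted p under 0.05. Against the Sorafenib clones, 5 were higher and 3 lower under ATUX, and 3 were higher and 2 lower under SMAP. These shares of 0, 44.4 and 27.8% stand beside 10.3, 25.8 and 34.5% of all genes. Clones of the same drug differed as well. Between ATUX8H and ATUX9D and between Sor6G and Sor9H, 11 of the 18 (61.1%) were called, where 46.1 and 33.7% of all genes were called. Between SMAP8D and SMAP9C it was 55.6%, against 35.1% of all genes. The share was below that of all genes in SMAP8D against SMAP6G (27.8 against 34.8%) and SMAP9C against SMAP6G (33.3 against 39.7%). Of the calls between ATUX8H and ATUX9D, those of EED, DNMT3B, SMCHD1 and EHMT2 were lost when the 6 ATUX libraries were fitted alone with a replicate block. UHRF1, which brings the maintenance methyltransferase to newly copied DNA, averaged 46.5 ± 6.62 CPM under ATUX, 38.1 ± 4.40 CPM under SMAP and 13.96 ± 2.48 CPM under Sorafenib (edgeR adjusted p = 0.00378 and 0.00282 against Sorafenib). DNMT1, that methyltransferase, was at 223 ± 29.8, 252 ± 25.0 and 122 ± 23.4 CPM (edgeR adjusted p = 0.0179 and 0.00616). DNMT3A, a de novo methyltransferase, was the opposite, at 23.2 ± 0.486, 24.2 ± 0.352 and 47.1 ± 1.03 CPM (edgeR adjusted p = 0.00341 and 0.00145). The calls of UHRF1 and DNMT3A held under all 15 alternatives in both comparisons. Those of DNMT1 held for SMAP and were lost for ATUX without ATUX9D or Sor9H (highest adjusted p = 0.0975). SMCHD1, a chromatin silencer, was lower in the ATUX (125 ± 10.7 CPM) and SMAP clones (129.6 ± 2.35 CPM) than in the Sorafenib clones (179.9 ± 9.48 CPM), and both calls were lost without Sor9H (adjusted p = 0.101 and 0.0849). The corepressor TRIM28, the chromatin remodeller HELLS and the Polycomb subunit SUZ12 were higher and the histone methyltransferase EHMT2 lower in ATUX than in Sorafenib clones. These calls were lost without Sor9H (adjusted p = 0.173, 0.123 and 0.0935) or, for EHMT2, without Sor6G (0.102). EED, another Polycomb subunit, was higher in SMAP than in Sorafenib clones (48.4 ± 5.70 against 31.8 ± 4.92 CPM, edgeR adjusted p = 0.0325), which was lost without Sor9H (adjusted p = 0.173). ZFP57 had its only counts in SMAP6G, at 0.0152 CPM, and DPPA3, the egg-derived protector of methylation, had 0 counts in every library.

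Clones of the same drug also differed in other imprinted genes. Of 46 such genes tested between clones, 54.3% were called between the ATUX clones, where 46.1% of all genes were called. Between the Sorafenib clones it was 37.0%, against 33.7% of all genes. Between SMAP8D and SMAP9C, SMAP8D and SMAP6G, and SMAP9C and SMAP6G, 34.8, 45.7 and 47.8% were called, against 35.1, 34.8 and 39.7% of all genes. These calls measure the spread between libraries of a clone only.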

How the data were processed

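The 21 libraries (7 clones, 3 repeats each) were poly-A selected with a stranded kit, per the labels' protocols. The table deposited by the authors gives unnormalized read counts as whole numbers, with gene positions, lengths and GC content in percent as the authors deposited them. The submitters' processing notes name cutadapt 1.15, Bowtie2 2.3.3.1, STAR 2.5.2b, SAMtools 1.5, featureCounts 1.5.3 and GRCh38. Their order, strand setting, handling of multi-mapped reads and gene annotation are not given in the sources used. Columns were matched by the library name in each title, and 0 columns belonged to other samples.

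The 10 genes, the gene lists and the tests were chosen with earlier results of these data known. Levels are CPM after TMM scaling, and TPM were computed from the deposited lengths. For drugs, the libraries of a clone were summed and the 7 sums fitted with edgeR 4.0.16 in R 4.3.3 (filterByExpr, robust quasi-likelihood fit, 18613 genes tested), so n counts clones. Clones of 1 drug were compared in a fit of all 21 libraries (16504 genes tested). Calls are Benjamini-Hochberg adjusted p under 0.05 over all genes tested, and the method was checked on simulated counts. Alternatives were DESeq2 1.42.0, its size factors, no filter, libraries as replicates with and without a repeat block, and leaving out each clone or repeat. The 8 of the 10 genes that passed the filter were fitted with all others. Repeats of a clone differed by more than sampling noise (chi-square per degree of freedom 2.26 to 30.1). The third library stood apart in both ATUX clones (20.3 to 30.1) and in Sor9H (13.96 to 15.6), where mitochondrial genes took 3.58% of its counts against 5.06 and 5.22%. Same-numbered libraries of ATUX8H and ATUX9D deviated together (correlations of 0.122, 0.154 and 0.211 over genes), so the numbers were taken to pair these 2 clones.

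Named beyond the 10 genes were the genes of their domains with at least 1 CPM in a clone, called genes of other domains with at least 5 CPM, called maintenance and IGF2 genes, the 3 called neighbours per comparison with the largest difference and at least 5 CPM, and the 3 genes most like ZNF597. Other genes named, such as MEG8, DLK1, ZFP57, DPPA3, WARS and ZIM2, were chosen after their values were seen.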

Additional observations from a re-analysis of the deposited data

How the results depend on the processing

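Of 272 alternative values computed, 236 stayed close to those reported and 36 moved. Over the on thresholds, scalings and repeats left out, 7 of the genes stayed on in all clones, ZNF597 in 5, and H19 and PEG3 in 0. DESeq2 called 3472 genes and 12 other imprinted genes in ATUX against SMAP. With the 21 libraries as replicates, ATUX against SMAP, ATUX against Sorafenib and SMAP against Sorafenib called 8375, 10378 and 10972 genes, and 24, 31 and 32 other imprinted genes; the cause was not tested, but repeats of a clone are not independent of it. Of 63 same-numbered pairs of libraries, 5 correlated above 0.1 (range -0.0763 to 0.211). All 3 pairs of ATUX8H and ATUX9D were among them, and no other 2 clones were taken as paired by number. Sor6G and Sor9H came closest, with correlations of 0.102, 0.0792 and 0.0808, so a weaker pairing of these clones is possible. With a replicate block, these fits called 8152, 10216 and 10788 genes, and 22, 31 and 32 other imprinted genes. Between ATUX8H and ATUX9D, 7609 genes were called without the block and 7713 with it, and 0 of 54 called genes of the lists were lost. The 6 ATUX libraries alone with the block, a fit added after seeing the data, called 5964 genes and lost 8 of the 54, with 8 of 87 listed genes not tested.

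Leaving out 1 clone or repeat gave 560 to 1861 genes and 1 to 6 other imprinted genes in ATUX against SMAP, 1430 to 4699 and 2 to 15 in ATUX against Sorafenib, and 2761 to 6811 and 6 to 21 in SMAP against Sorafenib. The lowest gene counts came without SMAP9C in the first comparison and without Sor9H in the other two, where a drug left with 1 clone was assumed to vary like the others. The counts of calls between clones of a drug stayed within 1.5 times. Without repeat 1, 2 or 3, the log2 difference of MEG3 between ATUX and SMAP was 0.25, 0.13 or -0.67. With 2 or 3 clones per drug and no untreated cells, these data limit drug differences to those wide against the spread between clones, and H19 and PEG3 were too low for a comparison.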

Other observations

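PLAGL1, a paternally expressed zinc finger gene that was named after its values were seen, was off in SMAP6G by the rule used for the 10 genes. It was at 0.0297 CPM in SMAP6G, 4.65 CPM in SMAP8D and 3.88 CPM in SMAP9C. In the ATUX clones it was at 6.02 CPM in ATUX8H and 1.91 CPM in ATUX9D, and in the Sorafenib clones at 16.4 CPM in Sor6G and 44.4 CPM in Sor9H. The log2 difference between SMAP8D and SMAP6G was 7.04 ± 0.67 (edgeR adjusted p = 1.87e-07 in the fit of all 21 libraries, which measures the spread between libraries of a clone only). It was not called between ATUX and SMAP clones (edgeR adjusted p = 0.841) or between ATUX and Sorafenib clones (edgeR adjusted p = 0.201), nor between SMAP and Sorafenib clones (edgeR adjusted p = 0.0934). The last p ran from 0.000111 to 0.342 over 15 alternatives, 3 of which called it.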
